A study of Mus musculus with 18 samples.

Results

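The genes described here are 9 amino acid transporter genes that cells are known to raise under stress: Slc7a11, Slc7a5, Slc7a1, Slc7a3, Slc3a2, Slc38a2, Slc6a9, Slc1a4 and Slc1a5. They were chosen by symbol, among the 10133 symbols that the authors' 3 deposited tables list. Of the 9 genes, 7 were listed in at least 1 table and 6 in all 3. Slc7a5, the large neutral amino acid transporter LAT1, and Slc7a3, the cationic amino acid transporter CAT-3, were in no table. Slc3a2 was missing at 0 min only. A gene that is not listed was not called different between the lines or was left out for another reason, so its absence says nothing about its level.

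Polyadenylated RNA was sequenced from 2 immortalized mouse embryonic fibroblast lines. The line called S51A here carries eIF2aS51A, an alanine in place of the serine of eIF2α that stress kinases phosphorylate, and the other is Wild-Type (WT). Each line was treated with 500 µM hydrogen peroxide (H2O2) for 15 or 120 min or left untreated (0 min). The labels list 3 samples in each of the 6 groups, 18 in all, whereas the design text speaks of duplicates. The groups are S51A at 0, 15 and 120 min and WT at 0, 15 and 120 min. Each table holds 1 FPKM value per line and gene, which is a read count scaled to transcript length and library size, so no value per sample, no spread and no depth is known. Each genotype is 1 line, and line and genotype cannot be told apart. The labels do not say whether the samples of a group were grown separately, and the deposited q-values may thus reflect technical spread alone. In such bulk samples, fewer cells of a type and less RNA per cell cannot be told apart.

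The tables hold only genes that the authors called different, with a q-value of at most 0.05: 7555 entries at 0 min, 8308 at 15 min and 6119 at 120 min. These calls are the basis for "higher" and "lower" throughout, and a listed gene is a called gene. Of 12 fibroblast markers, 10 were listed at 0 min, 7 higher in S51A and 3 lower, with Col1a2 at 1097 FPKM in S51A and 155 FPKM in WT, Vim at 1075 FPKM in S51A and 1872 FPKM in WT, and Dcn at 8.88 FPKM in S51A and 54.2 FPKM in WT. Of 15 markers of other cell types 2 were listed at 0 min: Cd68, at 1.11 FPKM in S51A and 1.97 FPKM in WT, and the neuronal tubulin Tubb3, at 74.0 FPKM in S51A and 16.2 FPKM in WT.

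Phosphorylation of eIF2α slows translation in general and favours translation of ATF4, a transcription factor that, as a dimer with C/EBP proteins, binds composite C/EBP-ATF response elements in the genes of amino acid supply. Several transporters are classic targets, so that cells short of amino acids or under oxidative stress take up more of them. Cystine uptake through the Slc7a11 product xCT feeds glutathione synthesis, and Slc7a11 is also a known target of the antioxidant factor NRF2.

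Promoter sequences were taken from RefSeq on GRCm38.p6, the same assembly as mm10, for the 6 of the 9 genes that have one there. They are shown for the gene with the largest difference between the lines and for 2 genes whose levels moved apart over time. Each is the 250 bases before the RefSeq transcript start, on the strand of the gene. The Slc7a11 window lies at chr3:50443614-50443863 (minus strand), that of Slc7a1 at chr5:148399905-148400154 (minus strand) and that of Slc38a2 at chr15:96699729-96699978 (minus strand). Capitals mark a match to the C/EBP-ATF response element core TGATGNAA in Slc7a11, and to the antioxidant response element core TGACNNNGC in Slc7a1 and Slc38a2, on either strand.
Slc7a11: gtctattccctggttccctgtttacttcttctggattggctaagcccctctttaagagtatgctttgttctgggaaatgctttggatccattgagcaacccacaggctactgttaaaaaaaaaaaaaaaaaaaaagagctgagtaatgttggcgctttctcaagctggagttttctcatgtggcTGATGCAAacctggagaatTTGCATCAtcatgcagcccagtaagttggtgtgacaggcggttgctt
Slc7a1: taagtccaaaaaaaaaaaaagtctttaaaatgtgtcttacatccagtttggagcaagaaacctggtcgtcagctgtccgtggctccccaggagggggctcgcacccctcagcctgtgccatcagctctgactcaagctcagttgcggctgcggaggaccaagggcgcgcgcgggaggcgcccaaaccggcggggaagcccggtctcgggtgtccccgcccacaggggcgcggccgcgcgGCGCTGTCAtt
Slc38a2: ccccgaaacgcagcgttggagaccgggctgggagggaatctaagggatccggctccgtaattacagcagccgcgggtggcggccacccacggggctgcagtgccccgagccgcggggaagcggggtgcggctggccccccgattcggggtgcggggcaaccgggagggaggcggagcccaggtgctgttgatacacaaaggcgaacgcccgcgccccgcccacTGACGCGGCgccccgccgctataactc

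The Slc7a11 window held 2 copies of the C/EBP-ATF core, in opposite orientations, at bases -66 to -59 and -47 to -40 before the start. Of the 6 members searched Slc7a11 alone had a match, in 1 of their 9 windows, beside 3.45% of 32851 RefSeq promoter windows of the same length. The antioxidant core was in 4 of the 9 windows, 1 each of Slc7a1 and Slc38a2 and 2 of Slc6a9, beside 10.2% of all windows. No member's window held both cores. A match is a run of letters and not a shown binding site. Elements outside these windows, such as those in introns, were not searched. Slc7a1 has 2 RefSeq starts and Slc6a9 has 3, and each of their windows was searched. The only Slc3a2 window, at chr19:8713898-8714147 (minus strand), lies inside the gene, which begins at 8723369. The bases before that beginning were thus not searched, and the lack of a match in Slc3a2 does not cover them. The Slc7a11 window directly precedes the deposited locus but also lies inside the RefSeq gene, which begins at 50499087 on the minus strand. The bases before that RefSeq beginning were not searched either.

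**Figure D1:**
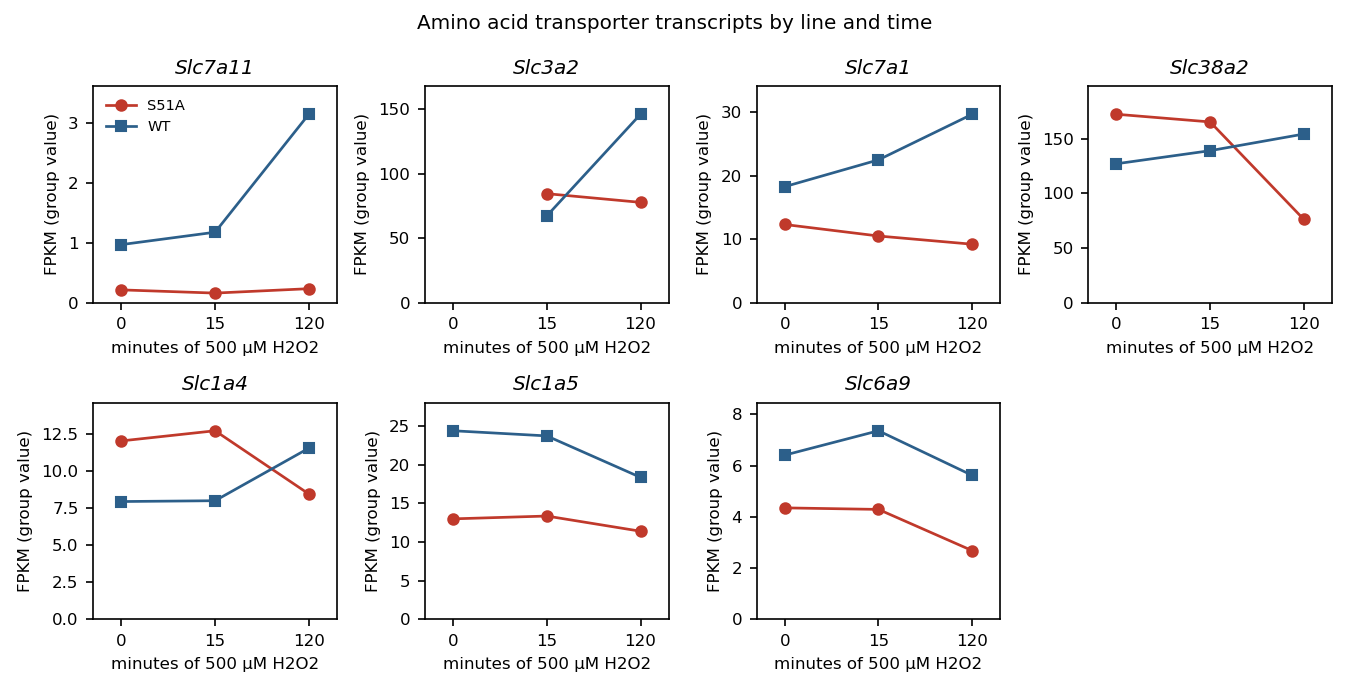
FPKM of the 7 listed transporters (vertical axes, linear from 0, 1 panel per gene) in S51A (red circles) and WT (blue squares) at 0, 15 and 120 min of H2O2, with times evenly spaced. Each point is 1 deposited group value with no error. Slc7a11 reached 3.14 FPKM in WT at 120 min, while the lines of Slc38a2, Slc1a4 and Slc3a2 cross between 15 and 120 min.

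Slc7a11 encodes the light chain of the cystine/glutamate exchanger xCT and lies on chromosome 3 (50364936 to 50443613, mm10). It was at 0.212, 0.158 and 0.232 FPKM in S51A at 0, 15 and 120 min, against 0.966, 1.17 and 3.14 FPKM in WT. The S51A values are low at every time and below every WT value. The deposited log2 ratio of S51A over WT was -2.19, -2.89 and -3.76 at 0, 15 and 120 min (authors' deposited table, q = 0.000118, 0.000102 and 0.000198, the lowest q in each table). As folds, S51A was 4.56, 7.41 and 13.5 times lower. Only 2.96% of listed ratios at 0 min and 1.11% at 120 min were lower. Even in WT at 120 min, the level of Slc7a11 was above that of only 22.5% of listed genes. In GENCODE M21 the gene Gm37498 overlaps the Slc7a11 locus on the same strand over 4002 bases, and reads there may be shared.

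Slc3a2 encodes CD98hc, the heavy chain that carries xCT, LAT1 and other light chains to the plasma membrane, and lies on chromosome 19 (8706882 to 8723369). It was at 84.4 and 77.7 FPKM in S51A at 15 and 120 min, against 67.2 and 146 FPKM in WT. The S51A values are close to each other, and the WT value at 120 min stands apart from the other 3. In the authors' deposited table Slc3a2 was higher in S51A at 15 min (log2 ratio 0.33, q = 0.000386) and lower at 120 min (log2 ratio -0.91, q = 0.000198). The heavy chain transcript exceeded that of the xCT light chain 534-fold and 335-fold in S51A at 15 and 120 min, and 57.3-fold and 46.5-fold in WT, on the FPKM scale. The S51A folds divide by 0.158 and 0.232 FPKM of Slc7a11, levels above only 0.63% and 1.45% of listed genes. Small steps in Slc7a11 thus move these folds far.

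Slc7a1 encodes CAT-1, which takes up arginine and lysine, and lies on chromosome 5 (148327410 to 148399904). Its levels were 12.3, 10.5 and 9.19 FPKM in S51A at 0, 15 and 120 min, against 18.3, 22.5 and 29.7 FPKM in WT. The values run downward with time in S51A and upward in WT. The deposited log2 ratio was -0.57, -1.10 and -1.69 (authors' deposited table, q = 0.000118, 0.000102 and 0.000198), so the difference between the lines at 120 min was 3.23-fold, the second largest among these genes.

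The sodium-coupled neutral transporter SNAT2, encoded by Slc38a2 on chromosome 15 (96687392 to 96699698), is a textbook gene of adaptive amino acid uptake. Slc38a2 was at 172, 165 and 76.1 FPKM in S51A at 0, 15 and 120 min, against 127, 139 and 154 FPKM in WT. S51A was the higher line at the first 2 times and the lower at 120 min. The deposited log2 ratio was 0.44 at 0 min (q = 0.000441) and 0.25 at 15 min (q = 0.0104), and -1.01 at 120 min (q = 0.000198). This was the most abundant of the 6 genes listed at 0 min in both lines.

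Slc1a4 and Slc1a5 encode ASCT1 and ASCT2, sodium-dependent exchangers of alanine, serine and cysteine, of which ASCT2 also carries glutamine. Slc1a4, on chromosome 11 (20302180 to 20332713), was at 12.0, 12.7 and 8.46 FPKM in S51A at 0, 15 and 120 min, against 7.94, 8 and 11.6 FPKM in WT. Its deposited log2 ratio was 0.61, 0.67 and -0.45 (q = 0.000118, 0.000102 and 0.0379), so this gene also changed sides, with the weakest of the calls at 120 min. Slc1a5, on chromosome 7 (16781346 to 16798274), was at 13.0, 13.4 and 11.4 FPKM in S51A, against 24.4, 23.8 and 18.4 FPKM in WT. It was lower in S51A at each time (log2 ratio -0.91, -0.83 and -0.69; q = 0.000118, 0.000102 and 0.000713), and the gap between the lines was smallest at 120 min.

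Slc6a9 encodes the glycine transporter GLYT1, which supplies one of the 3 amino acids of glutathione, and lies on chromosome 4 (117835258 to 117872470). It was at 4.35, 4.29 and 2.68 FPKM in S51A at 0, 15 and 120 min, against 6.41, 7.36 and 5.62 FPKM in WT. S51A was lower at each time (log2 ratio -0.56, -0.77 and -1.07; authors' deposited q = 0.00500, 0.000102 and 0.00232). The Slc6a9 locus overlaps Gm17114, Ccdc24 and B4galt2 on the other strand in GENCODE M21, with Gm17114 over 33260 bases. B4galt2 was also lower in S51A in every table, by a log2 ratio of -0.59, -0.63 and -0.55, and reads of these genes may be shared, since no source used here says whether counting took strand into account.

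**Figure D2:**
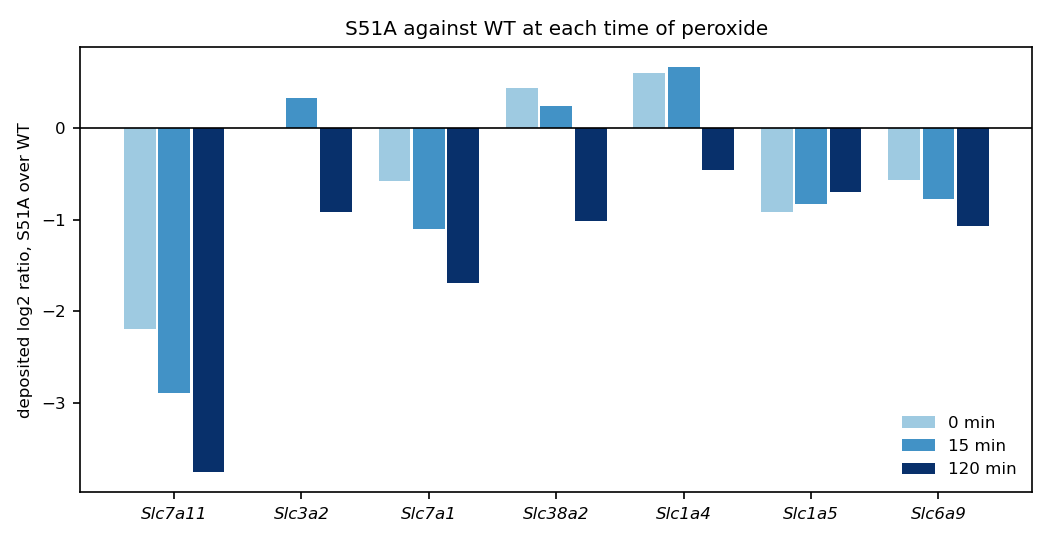
Deposited log2 ratio of S51A over WT (vertical axis) for the 7 listed transporters at 0, 15 and 120 min (light to dark bars). Every bar at 120 min lies below 0, whereas Slc38a2 and Slc1a4 lie above 0 at 0 and 15 min and Slc3a2 at 15 min.

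Before peroxide, 4 of 6 listed transporters were lower in S51A and 2 higher, beside 50.4% of all listed entries lower and 49.6% higher. At 15 min 4 of 7 were lower and 3 higher, beside 50.1% lower and 49.9% higher. At 120 min all 7 listed transporters were lower and 0 were higher, beside 49.1% of all listed entries lower and 50.9% higher. The median log2 ratio of the listed transporters was -0.56, -0.77 and -1.01 at 0, 15 and 120 min, and that of all listed entries -0.27, -0.20 and 0.41. At least 2-fold lower were 1 transporter at 0 min, 2 at 15 min and 4 at 120 min, beside 15%, 12.3% and 20.9% of all entries. No listed transporter was at least 2-fold higher at 0, 15 or 120 min (0 in each table), beside 22.1%, 20.2% and 26.5% of all entries. Slc38a2 at 120 min lay just inside this limit, at 2.01-fold lower, with Slc3a2 just outside it, at 1.88-fold lower.

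Some transporters changed side between tables. Of the 7 transporters listed at both 15 and 120 min, Slc3a2, Slc38a2 and Slc1a4 (3 of 7) were higher in S51A at 15 min and lower at 120 min, beside 75 of 4962 genes (1.51%). From 0 to 120 min 2 of 6 transporters did so, Slc38a2 and Slc1a4, beside 335 of 4328 genes (7.74%). None of the 6 transporters listed at 0 and 15 min changed side between those times, when 87 of 6369 genes (1.37%) went from higher to lower and 31 (0.487%) from lower to higher. In the later intervals 0 transporters went from lower to higher, beside 179 genes (3.61%) from 15 to 120 min and 449 genes (10.4%) from 0 to 120 min. Relative to the ratio at 0 min, the log2 ratio at 120 min fell for 5 of 6 transporters, beside 52.9% of all genes listed at both times, and the exception was Slc1a5, with a change of 0.22. The median change was -1.09 for the transporters and -0.05 for all these genes.

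Within each line, levels at 120 and 0 min can be set side by side only as a description, because the tables may have been normalized separately. In S51A, 5 of 6 transporters were lower at 120 than at 0 min and Slc7a11 was slightly higher, beside 61.2% of 4272 genes lower. In WT, 4 of 6 were higher at 120 min, beside 30.6% of these genes. Slc7a1, Slc38a2 and Slc1a4 were lower in S51A and higher in WT at 120 min than at 0 min, which held for 17.6% of genes. After each line was centred on its own median gene, these 3 transporters still did so, beside 21.9% of genes, but Slc1a5 in S51A turned from lower to about 0 (0.0023 on the centred log2 scale with a pseudocount of 1 FPKM). The median log2 change of all genes from 0 to 120 min was -0.22 in S51A and -0.12 in WT.

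On the FPKM scale, Slc7a11 at 120 min was 1.09 times its level at 0 min in S51A and 3.25 times in WT. In WT, 0.328% of the 609 genes with transcripts of at least 6000 nt, itself included, rose by as much. Slc3a2 at 120 min was 0.92 times its level at 15 min in S51A and 2.17 times in WT. Slc38a2 at 120 min was 0.441 times its 0 min level in S51A and 1.21 times in WT. Slc7a1 was at 0.747 times in S51A and 1.62 times in WT, and Slc1a4 at 0.702 times in S51A and 1.45 times in WT. Slc6a9 was at 0.616 times in S51A and 0.877 times in WT, and Slc1a5 at 0.877 times in S51A and 0.753 times in WT. The WT increases thus ranged widely, and the 2 exceptions in WT were Slc6a9 and Slc1a5. Over the 6 transporters, the median log2(FPKM + 1) change from 0 to 120 min, centred on all genes, was -0.25 in S51A and 0.48 in WT.

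**Figure D3:**
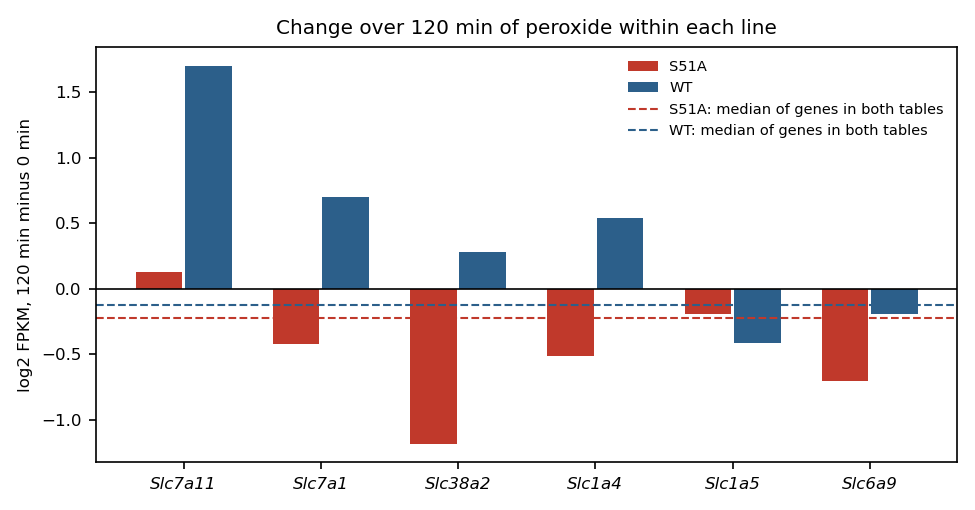
Log2 FPKM at 120 min minus 0 min (vertical axis, no pseudocount) for the 6 transporters listed at both times, in S51A (red) and WT (blue). Dashed lines show the median of all genes listed at both times, -0.22 in S51A and -0.12 in WT. Slc7a11 has the tallest WT bar, at 1.70, and Slc38a2 the deepest S51A bar, at -1.18.

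Transcript length moved with these changes. Over 4102 genes with a length in GENCODE M21, the change of the S51A to WT log2 ratio from 0 to 120 min went with log2 transcript length at Pearson r = -0.65, a description across genes of the same libraries. For the log2 change within a line, r was -0.65 in S51A and 0.02 in WT. The shorter intervals differed from this in WT. From 0 to 15 min r was -0.46 in S51A and 0.50 in WT, and from 15 to 120 min -0.59 in S51A and -0.32 in WT. Genes with transcripts of at least 6000 nt had a median log2 change of -1.0 in S51A and -0.05 in WT. Slc7a11 (9223 nt) and Slc7a1 (7179 nt) belong to this class and changed in ratio by -1.57 and -1.12, against a class median of -0.94. The S51A changes of Slc7a11 and Slc7a1 were 0.13 and -0.42, less negative than the median of their class. Their WT changes were 1.70 and 0.70, above the class median.

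The other members are shorter. Slc38a2 (4660 nt) changed in ratio by -1.45, against a median of -0.38 for transcripts of 4000 to below 6000 nt, and 5.26% of the 875 genes of that class, itself included, had a change as low or lower. Slc1a4 (3926 nt) changed by -1.06, Slc6a9 (3479 nt) by -0.51 and Slc1a5 (2764 nt) by 0.22, against a median of -0.01 for 1671 genes of 2000 to below 4000 nt. The share of the own length class with a change as low or lower was 13.8% for Slc7a11, 38.6% for Slc7a1, 5.27% for Slc1a4, 17.0% for Slc6a9 and 67.9% for Slc1a5. From 15 to 120 min Slc3a2 (2813 nt) changed by -1.24, against -0.04 for its length class, of which 2.52% had a change as low or lower. From 0 to 15 min length also went with the ratio (r = -0.59), and Slc7a11 and Slc7a1 changed by -0.70 and -0.53, against a median of -0.37 for the class of at least 6000 nt. In S51A these genes changed by -0.42 and -0.23, against a class median of -0.13, and in WT by 0.28 and 0.30, against 0.26. The part of transcript length in the transporter differences was not tested.

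**Figure D4:**
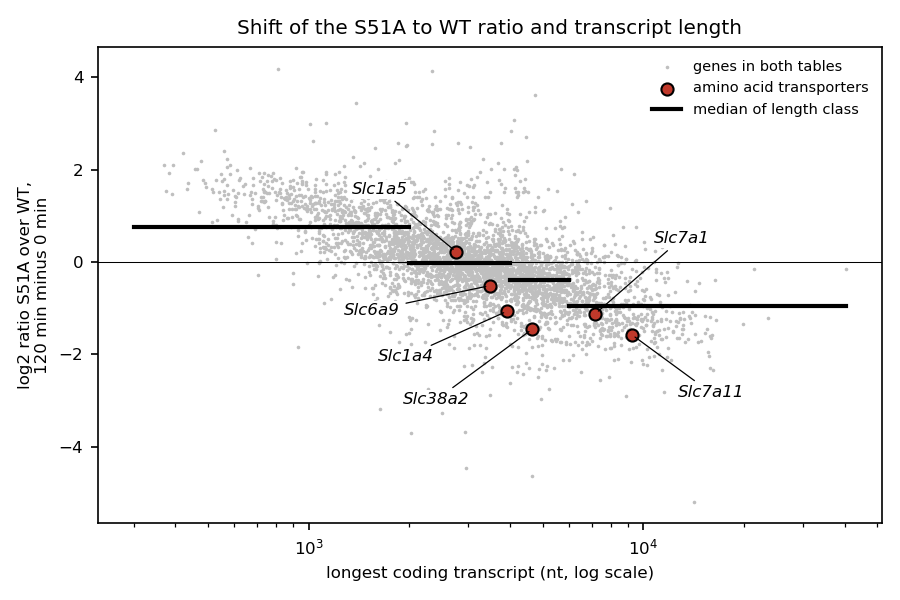
Change of the log2 ratio of S51A over WT from 0 to 120 min (vertical axis) against the longest coding transcript in nt (horizontal log axis) for 4102 genes (grey) and the 6 transporters listed at both times (red). Black lines are medians of 4 length classes, from 0.76 for the shortest to -0.94 for the longest. Slc38a2 and Slc1a4 lie furthest below the line of their class.

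Transporters differed in level by more than 2 orders of magnitude. At 0 min in S51A, Slc38a2 led at 172 FPKM, Slc1a5, Slc7a1 and Slc1a4 lay together at 13.0, 12.3 and 12.0 FPKM, and Slc6a9 and Slc7a11 followed. In WT at 0 min the order was Slc38a2, Slc1a5, Slc7a1, Slc1a4, Slc6a9 and Slc7a11. At 120 min in S51A, Slc3a2 at 77.7 FPKM and Slc38a2 at 76.1 FPKM were nearly level, while in WT Slc38a2 at 154 FPKM and Slc3a2 at 146 FPKM led, with Slc7a1 next at 29.7 FPKM. Because the spread between samples is unknown, it cannot be said which neighbours in these orders differ.

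Among themselves, the time patterns of Slc6a9 and Slc1a5 were closest, with a root mean square difference of 0.18 in log2 FPKM over the 6 group values after each gene was centred on its mean. Slc38a2 and Slc1a4 were the next pair at 0.30, and Slc7a11 lay farthest from the rest, 1.00 from Slc7a1 and 1.68 from Slc1a4. By the same measure among 3771 genes, the nearest to Slc7a11 was Trib3, a pseudokinase gene (0.46), so no gene was a close match. Trib3 was at 3.03, 3.41 and 3.36 FPKM in S51A and at 9.65, 9.06 and 36.8 FPKM in WT at 0, 15 and 120 min. Nearest to Slc38a2 were Atg4c, which encodes an autophagy protease (0.05), and Herpud1, a gene of endoplasmic reticulum stress (0.12). Nearest to Slc7a1 were Atxn2l (0.07) and Foxj3 (0.10), and nearest to Slc1a4 were Nbr1, an autophagy receptor gene (0.13), and Klf4, a transcription factor gene (0.14). Slc6a9 was nearest to Morc2a and Ncoa5 (0.04 each), and Slc1a5 to Utp23 (0.03) and Mcam (0.05).

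Other amino acid transporter genes formed a list of 53, of which 23 were listed at 0 min, 23 at 15 min and 13 at 120 min. They were lower in S51A for 9, 10 and 7 genes and higher for 14, 13 and 6 at 0, 15 and 120 min, that is 39.1%, 43.5% and 53.8% lower, beside 50.4%, 50.1% and 49.1% of all listed entries. Their median log2 ratio was 0.57, 0.37 and -0.46, beside -0.27, -0.20 and 0.41 for all entries. The largest differences were in the direction of higher S51A levels. Slc1a6, a glutamate transporter best known from cerebellar neurons, was at 13.6, 13.9 and 14.7 FPKM in S51A, against 0.346, 0.171 and 0.112 FPKM in WT. Slc7a2, the cationic amino acid transporter CAT-2 and a relative of Slc7a1, was at 44.6, 41.1 and 25.1 FPKM in S51A, against 4.92, 6.63 and 5.24 FPKM in WT. The branched-chain amino acid transporter gene Slc6a15 was at 1.79, 1.69 and 1.04 FPKM in S51A, against 0.507, 0.406 and 0.275 FPKM in WT.

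On the lower side, the glutamine transporter gene Slc38a1 (SNAT1), a relative of Slc38a2, was at 18.4, 16.4 and 7.89 FPKM in S51A, against 24.3, 28.6 and 22.3 FPKM in WT. Its deposited log2 ratio was -0.40 at 0 min and -1.50 at 120 min, and its transcript is 7266 nt long. Slc38a6 was higher in S51A at each time, at 3.71 FPKM against 0.697 FPKM in WT at 0 min. Among cationic transporters the lines went opposite ways, with Slc7a1 lower and Slc7a2 higher in S51A at every time.

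**Figure D5:**
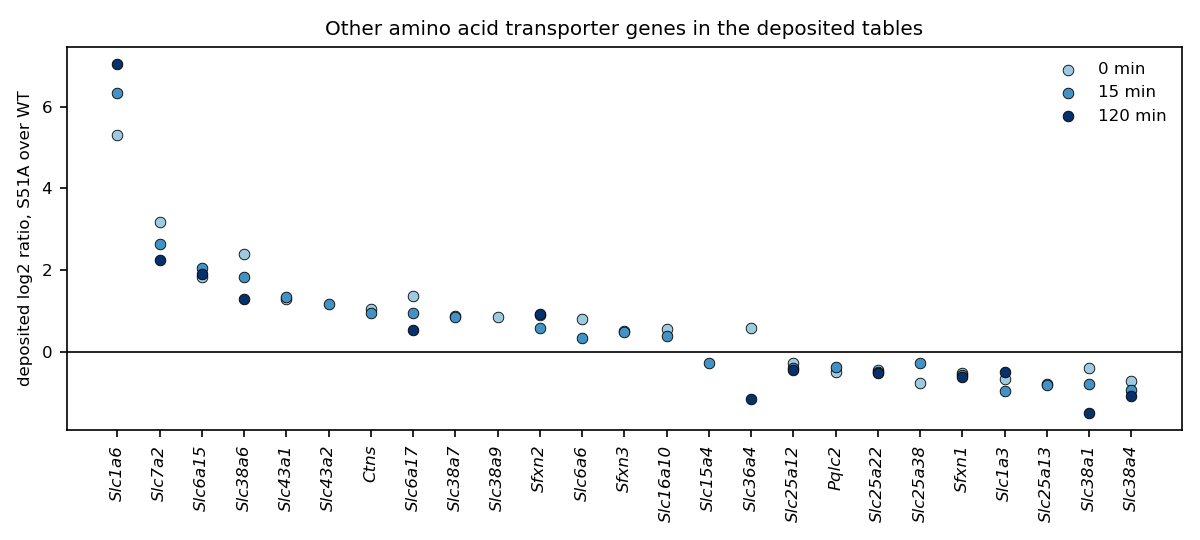
Deposited log2 ratio of S51A over WT (vertical axis) for the other amino acid transporter genes listed in at least 1 table, at 0, 15 and 120 min (light to dark points), ordered by mean ratio. Slc1a6 and Slc7a2 lie highest and Slc38a1 and Slc38a4 lowest.

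Transcription factors of the amino acid, antioxidant and growth responses, with the NRF2 inhibitor gene Keap1, were listed for 11 of 12 at 0 min, 10 at 15 min and 6 at 120 min. Of these 7, 6 and 3 were lower in S51A and 4, 4 and 3 higher, that is 63.6%, 60% and 50% lower, beside 50.4%, 50.1% and 49.1% of all entries. Myc was at 26.7, 26.5 and 99.7 FPKM in S51A, against 96.3, 91.1 and 60.5 FPKM in WT. Cebpg, a C/EBP partner of ATF4, was at 12.5 FPKM in S51A and 22.9 FPKM in WT at 120 min (authors' deposited table, log2 ratio -0.89), having been higher in S51A at 0 min, at 15.7 FPKM against 12.8 FPKM in WT. Atf3, a stress-induced factor, was at 3.18, 3.73 and 44.6 FPKM in S51A, against 1.55, 2.13 and 15.3 FPKM in WT. Nupr1, a stress-induced chromatin protein gene, was at 52.0, 58.5 and 120 FPKM in S51A, against 20.4, 18.9 and 35.5 FPKM in WT. Bach1, a repressor of antioxidant genes, was at 11.5 and 10.2 FPKM in S51A at 0 and 15 min, against 4.99 and 6.28 FPKM in WT, and was not listed at 120 min. Atf4 was at 246 and 267 FPKM in S51A at 0 and 15 min, against 313 and 311 FPKM in WT. Nfe2l2, the NRF2 gene, was at 35.0 and 34.3 FPKM in S51A at these times, against 51.3 and 49.5 FPKM in WT. Neither Atf4 nor Nfe2l2 was listed at 120 min. At 120 min Myc, Atf3 and Nupr1 were higher in S51A, and Cebpg and the other 2 listed factors were lower.

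A list of 14 genes covered glutathione synthesis, use and degradation, the route to cysteine, and Cd44. Its genes were lower in S51A for 6 of 8 listed at 0 min, 7 of 9 at 15 min and 6 of 8 at 120 min, that is 75%, 77.8% and 75%, beside 50.4%, 50.1% and 49.1% of all entries. Gclc, the catalytic subunit of the rate-limiting enzyme, was at 17.1, 16.1 and 11.6 FPKM in S51A, against 41.1, 44.9 and 38.3 FPKM in WT. Cd44, of which variant forms are known to stabilise xCT, was at 37.3, 37.0 and 47.5 FPKM in S51A, against 115, 120 and 103 FPKM in WT. These values are for the whole gene and do not tell its forms apart. Chac1, a glutathione-degrading enzyme gene, was at 0.503 FPKM in S51A and 17.6 FPKM in WT at 120 min. Cbs, of the transsulfuration route to cysteine, went the opposite way, at 1.01 FPKM in S51A and 0.195 FPKM in WT at 0 min, as did Ggt7, at 1.64 FPKM in S51A and 0.551 FPKM in WT at 120 min. The list's median log2 ratio was -0.99, -0.58 and -0.71, beside -0.27, -0.20 and 0.41 for all entries.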

How the data were processed

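RNA of 18 samples was measured in 6 groups. STAR, Cufflinks, Cuffdiff and mm10 are named, without version or role, in the submitters' processing notes. The authors' 3 deposited tables hold, per the file headers, a log2 FPKM for S51A and for WT, their log2 ratio and the q-value of the comparison, so replicates had been combined before deposit. Each deposited entry has status OK and is marked significant, and -10 in a log2 FPKM column marks a group at 0. The ratio is S51A over WT and equals the difference of both columns within 0.01. The last column, a quotient of logarithms, was left aside.

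FPKM were obtained as powers of 2 with pandas 2.3.3 in Python 3.11.15. No test across samples could be made, so direction rests on the deposited q-values. The functions that count, subtract and match were checked on simulated data. Sequencing depth is unknown. Changes over time used log2(FPKM + 1), centred on genes listed in both tables. Entries with 2 symbols, dates for symbols or repeated symbols were left out of comparisons between tables. Deposited starts had 1 added. List genes under older symbols were matched through RefSeq, 4 in all. Promoters were read from RefSeq and lengths from GENCODE M21. Named genes were all 9 members, up to 4 genes per list and time by size of ratio with at least 1 FPKM, and the 2 genes nearest each member, of which 1 is not reported here. Keap1, B4galt2, Ccdc24, Col1a2, Vim, Dcn, Cd68, Tubb3, Slc38a4, Mtor, Lamtor1, Lamtor3, Lamtor4 and Lamtor5 were named after their values were seen. Slc36a4, Atf4, Nfe2l2, Cth and Gss were added in the same way, and Gm17114 and Gm37498 for their overlap. Members and lists were chosen with earlier results of these data known.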

Additional observations from a re-analysis of the deposited data

Results flagged for a closer look

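Of the transporters, 3 were called in opposite directions at 2 times. The deposited log2 ratio of S51A over WT for Slc38a2 was lower at 120 min than at 0 min by a difference of -1.45, and that for Slc1a4 by -1.06. For Slc3a2, which was not listed at 0 min, the ratio at 120 min minus that at 15 min was -1.24. Each gene was higher in S51A at the earlier time and lower at 120 min. This change of side was not particular to these genes. From 15 to 120 min it held for 75 of 4962 genes (1.51%), and from 0 to 120 min for 335 of 4328 genes (7.74%). Slc36a4, of the other amino acid transporters, had a log2 ratio of 0.57 at 0 min and -1.17 at 120 min. The differences between times were not tested, because each table holds 1 value per line.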

How the results depend on the processing

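With a minimum fold of 2, the number of transporters lower in S51A was 1 at 0 min, 2 at 15 min and 4 at 120 min, and the number higher was 0 at 0 min and 0 at 15 min. The 4 at 120 min were Slc7a11, Slc7a1, Slc6a9 and Slc38a2. A deposited q of at most 0.01 left 6 transporters lower at 120 min, without Slc1a4, and 2 higher at 15 min, without Slc38a2. At least 5 FPKM in the higher group left out Slc7a11, giving 3, 3 and 6 lower. No share of all listed entries is given for this q limit or this FPKM limit, so these counts have no background beside them. Ratios less the median of listed genes, an alternative chosen after seeing the data, gave the same counts. The median change from 0 to 120 min ran from -0.42 to -0.25 in S51A and from 0.38 to 0.52 in WT over the settings of pseudocount, centring and level tried. No paired analysis was possible because the tables hold 1 value per group, and for the same reason no replicate could be left out. Without counts, what depth limits is unknown.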

Other observations

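Genes that sense amino acids for the kinases mTORC1 and GCN2 were listed for 16 of 32 at 0 min, 26 at 15 min and 19 at 120 min. They were divided 8 lower and 8 higher in S51A at 0 min and 13 and 13 at 15 min, and 14 were lower and 5 higher at 120 min, that is 50%, 50% and 73.7% lower, beside 50.4%, 50.1% and 49.1% of all listed entries. The leucine sensor gene Sesn2 was at 2.77 FPKM in S51A and 40.5 FPKM in WT at 120 min, and the small GTPase gene Rragb at 2.27 FPKM in S51A and 6.82 FPKM in WT. The arginine sensor gene Castor1, listed as Gatsl3, was higher in S51A, at 3.18 FPKM against 1.10 FPKM in WT at 120 min. At 0 min its relative Castor2, listed as Gatsl2, was at 8.17 FPKM in S51A and 2.06 FPKM in WT, and Sesn3 at 21.4 FPKM in S51A and 6.02 FPKM in WT. The other genes higher in S51A at 120 min were Lamtor2, Lamtor3, Lamtor4 and Lamtor5, subunits of the lysosomal Ragulator complex, with Lamtor2 at 189 FPKM in S51A and 64.9 FPKM in WT. The fifth subunit gene, Lamtor1, was lower in S51A in every table, at 47.5 FPKM in S51A and 70.0 FPKM in WT at 120 min. The transcripts of these 4 higher genes are 668 to 1295 nt long and that of Lamtor1 is 1119 nt long, whereas Mtor, at 3.73 FPKM in S51A and 8.11 FPKM in WT, has one of 8564 nt. The part of transcript length in these differences was not tested.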
